A study of Rattus norvegicus with 30 samples.

Results

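The podocyte genes described here are 8 genes of the visceral epithelial cell of the glomerulus: *Nphs1*, *Podxl*, *Wt1*, *Synpo*, *Ptpro*, *Plce1*, *Cd2ap* and *Magi2*. They were taken by gene symbol from the 32545 genes counted, each symbol had 1 row, and all 8 passed the filter on low counts in every comparison. The study fed male Sprague-Dawley rats a purified diet and sequenced poly(A) RNA from the right kidney, dissected into cortex (Cx) and outer medulla (OM), to ask which transcripts moved with a high salt intake. The LS group ate 0.4% NaCl, the HS14 group 4.0% NaCl for 14 days and the HS21 group 4.0% NaCl for 21 days, with 5 libraries for each diet in each tissue and 30 libraries in all. All groups share the strain, and the labels name no altered gene. The study's methods state an age at surgery for rats fitted with a flow probe on the renal artery. Elsewhere the study describes the sequenced tissue as coming from a separate group of rats, and it states no age for that group. The labels do not say which libraries came from the same rat, so that *P*-values measure the spread between these libraries.

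Podocytes wrap the glomerular capillaries with interlocking foot processes, and the slit diaphragm that bridges neighbouring processes is a main part of the filtration barrier. Its backbone is nephrin, a transmembrane protein of the immunoglobulin superfamily, which adaptor proteins couple to the actin skeleton. A negatively charged glycoprotein coat keeps the processes apart, and a small set of transcription factors maintains the differentiated cell. Glomeruli lie in the cortex, so that an OM sample cut clear of the cortex holds few or no podocytes.

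By role, *Nphs1* encodes nephrin itself (chr1:88922433-88950559, + strand, Rnor_6.0, as are all gene positions here), and *Plce1* (chr1:257157264-257466064, +) encodes phospholipase C epsilon, a signalling enzyme that binds nephrin-associated proteins. *Cd2ap* (chr9:20765296-20858504, +) and *Magi2* (chr4:10995234-11610518, -) encode cytoplasmic scaffolds that anchor nephrin. *Podxl* (chr4:58829060-58893170, -) encodes podocalyxin, the main sialoprotein of the surface coat, and *Ptpro* (chr4:171250818-171461677, +) encodes a receptor tyrosine phosphatase of the apical foot process membrane. *Synpo* (chr18:55865467-55916220, -) encodes synaptopodin, which bundles actin with alpha-actinin in the foot process. *Wt1* (chr3:95133713-95180564, +) encodes a zinc finger transcription factor. All 8 are annotated as protein coding.

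The start regions of 3 of these genes are shown because they stand at the ends of the patterns described below: *Nphs1* and *Ptpro*, which were low in OM and higher in Cx at HS21, and *Cd2ap*, which was neither. Each window runs from 250 bases before to 50 bases after the RefSeq start of the gene on the GRCr8 assembly, a later build than the one used for counting. They lie at chr1:94848011-94848310 on the + strand for *Nphs1*, chr4:171895261-171895560 on the + strand for *Ptpro* and chr9:25583725-25584024 on the + strand for *Cd2ap*. Capitals mark the E-box (CANNTG) and the GC box (GGGCGG on either strand).
Nphs1: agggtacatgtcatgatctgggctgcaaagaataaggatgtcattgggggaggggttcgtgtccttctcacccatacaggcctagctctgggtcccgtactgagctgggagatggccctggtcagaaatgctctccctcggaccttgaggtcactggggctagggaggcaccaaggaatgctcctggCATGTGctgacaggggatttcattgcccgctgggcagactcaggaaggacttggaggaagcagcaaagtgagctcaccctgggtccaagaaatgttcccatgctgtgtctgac
Ptpro: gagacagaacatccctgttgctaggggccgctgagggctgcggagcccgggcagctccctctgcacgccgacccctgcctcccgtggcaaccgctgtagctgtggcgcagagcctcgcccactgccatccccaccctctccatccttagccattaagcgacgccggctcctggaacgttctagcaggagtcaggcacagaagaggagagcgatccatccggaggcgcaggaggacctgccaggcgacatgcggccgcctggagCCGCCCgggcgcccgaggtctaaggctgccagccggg
Cd2ap: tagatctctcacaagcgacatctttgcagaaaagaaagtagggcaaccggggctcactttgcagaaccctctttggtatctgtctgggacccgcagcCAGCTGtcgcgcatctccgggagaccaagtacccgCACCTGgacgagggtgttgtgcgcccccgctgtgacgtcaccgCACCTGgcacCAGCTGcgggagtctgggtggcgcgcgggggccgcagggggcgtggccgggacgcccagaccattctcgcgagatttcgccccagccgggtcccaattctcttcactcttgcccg
Such windows, from RefSeq, were matched by symbol for 7 of the 8 members, all but *Plce1*. The *Nphs1* window held 1 E-box and no GC box, with 56.3% G and C. The *Ptpro* window held 1 GC box and no E-box, with 68.7% G and C. The *Cd2ap* window held 4 E-boxes and no GC box, with 64% G and C, and 2 copies of the core GCGGGGG of the type bound by WT1 and EGR proteins on either strand. That core was in none of the other 6 member windows, *Wt1* itself included. Among all 33469 windows of the same length, 72.1% held an E-box, 33.1% a GC box and 9.16% the GCGGGGG core, with a median G and C content of 51.7%. *Podxl* had 7 GC boxes and *Synpo* 3, and the forkhead core GTAAACA, found in 3.78% of all windows, was in none of the 7. These letter matches are a description of the windows and were not tied to the measurements.

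The libraries held 12748841 to 21842843 counts over genes, except OM HS14 replicate 10, which held 5408126. In the study's own quality report, that library also had the lowest mapping rate, the lowest exonic share and the highest intronic share of all libraries. OM LS replicate 2 stood apart from the other OM libraries. *Slc12a3*, the sodium-chloride cotransporter of the distal convoluted tubule, a cortical segment, was at 354 CPM (a gene's count divided by the library's total in units of 1e6, the total being scaled by TMM, a trimmed mean of log ratios between libraries) in that library and at 8.61 to 20.4 in the other 4 OM LS libraries, against 979 to 1190.4 in Cx LS. For the members, ratios whose call or direction turned on these libraries are given with and without them, some as ranges over omissions. Results for the other listed genes and the group means were computed with all libraries.

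Per length of transcript, the members of Cx LS fell into a steep order. *Podxl* was highest at 54.0 ± 3.02 FPKM (fragments per kilobase of gene and 1e6 fragments, mean ± SD, n = 5), followed by *Cd2ap* at 40.8 ± 2.82 and *Nphs1* at 22.6 ± 1.98. *Synpo* (17.2 ± 1.14) and *Ptpro* (16.5 ± 1.18) did not differ beyond their spread. *Wt1* was at 7.61 ± 0.668, *Plce1* at 2.10 ± 0.0527 and *Magi2* at 1.48 ± 0.379 FPKM, and the *Plce1* and *Magi2* ranges met, at 2.07 to 2.19 and 1.14 to 2.07. *Plce1*, with a coefficient of variation of 2.36%, was the most even of the 8 over the Cx LS libraries, and *Magi2*, with 63 to 119 counts per library, was the least even at 25.7%.

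**Figure D1:**
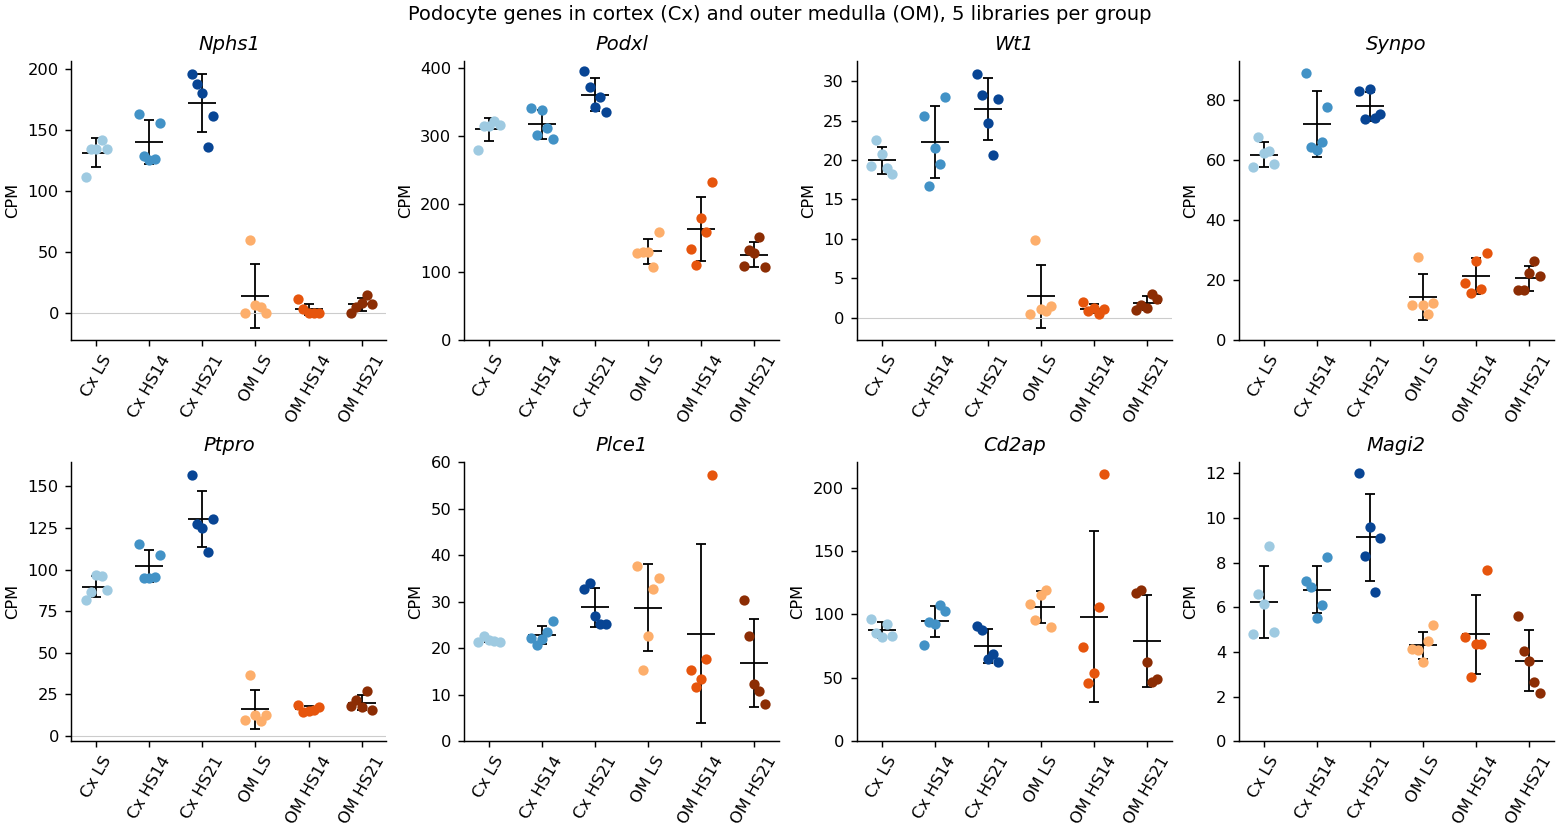
Each panel plots 1 podocyte gene, with CPM on a linear y axis, the 6 groups on the x axis, 1 point per library and the mean ± SD of 5 libraries as a bar. In Cx, 7 of the 8 genes sit higher at HS21 than on LS, *Cd2ap* does not, and *Nphs1* and *Wt1* are near 0 in most OM libraries.

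After 21 days of high salt, 7 of the 8 podocyte genes were raised in Cx and none was lowered. The fitted ratios to LS ran from 1.16-fold for *Podxl* to 1.46-fold for *Magi2*. The test was edgeR's quasi-likelihood F-test with Benjamini-Hochberg adjustment over 14299 genes, called at an adjusted *P* under 0.05. It called 18.9% of all genes raised and 20.5% lowered in this comparison. The median log2 ratio was 0.39 over the members and 0.0046 over all genes tested.

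*Nphs1* was at 112, 135, 135, 142 and 135 CPM in Cx LS and at 196, 187, 180.0, 136 and 161 CPM in Cx HS21. All but 1 of the HS21 libraries lay above the highest LS library, and HS21 replicate 14 lay inside the LS range. Nephrin mRNA thus rose by a log2 ratio of 0.38 ± 0.097 (SE), with an edgeR adjusted *P* of 0.00866. The two-sided exact permutation test on mean log2 CPM cannot go below 0.00794 with 5 libraries against 5, and gave *P* = 0.0159.

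*Plce1* was at 21.4, 22.7, 21.8, 21.6 and 21.4 CPM in Cx LS and at 32.7, 34, 26.9, 25.1 and 25.3 CPM in Cx HS21. The groups did not overlap, and HS21 replicates 11 and 12 stood above the other HS21 libraries. The log2 ratio was 0.40 ± 0.093 (edgeR adjusted *P* = 0.00556), with the exact permutation *P* at its smallest value of 0.00794.

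*Magi2* was at 4.81, 6.58, 6.16, 8.74 and 4.88 CPM in Cx LS and at 12, 8.30, 9.60, 6.67 and 9.11 CPM in Cx HS21. LS replicate 4 overlapped the HS21 group. This scaffold had the largest log2 ratio of the members and the largest error, 0.55 ± 0.20 (edgeR adjusted *P* = 0.0444; exact permutation *P* = 0.0317). The call was lost when any of Cx LS replicates 1, 2, 3 or 5 or Cx HS21 replicates 11, 13 or 15 was left out, with log2 ratios of 0.44 to 0.70 over the 10 omissions, and without the filter on low counts (adjusted *P* = 0.0553).

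*Cd2ap*, the other scaffold, was at 96.2, 85.4, 82.4, 92.9 and 83.1 CPM in Cx LS and at 91.2, 87.5, 64.9, 69.1 and 62.6 CPM in Cx HS21. HS21 replicates 11 and 12 lay inside the LS range and the other 3 lay below it. Its log2 ratio was -0.23 ± 0.11 (95% interval -0.47 to 0.0040; edgeR adjusted *P* = 0.110; exact permutation *P* = 0.111). Without Cx HS21 replicate 11 the log2 ratio was -0.30 and the gene was called lowered (edgeR adjusted *P* = 0.0335).

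*Podxl*, for the surface coat, was at 279, 315, 315, 323 and 317 CPM in Cx LS and at 396, 373, 343, 357 and 336 CPM in Cx HS21. The groups did not overlap, and the lowest LS library, replicate 1, stood apart from the other 4. The change was the smallest of the 7 that were called, a log2 ratio of 0.22 ± 0.058 (edgeR adjusted *P* = 0.0117; exact permutation *P* = 0.00794). Without Cx LS replicate 1, which was also the lowest LS library for *Nphs1*, it was 0.18 (edgeR adjusted *P* = 0.0304), and that of *Nphs1* was 0.33 (0.0221).

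*Ptpro* was at 81.5, 86.8, 96.8, 95.9 and 87.7 CPM in Cx LS and at 157, 128, 125, 111 and 130.4 CPM in Cx HS21. Every HS21 library exceeded every LS library. The phosphatase had the lowest adjusted *P* of the members, with a log2 ratio of 0.53 ± 0.086 (edgeR adjusted *P* = 0.000615; exact permutation *P* = 0.00794).

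*Synpo* was at 57.5, 67.7, 62.3, 63.0 and 58.7 CPM in Cx LS and at 82.9, 73.7, 83.6, 73.9 and 75.2 CPM in Cx HS21. The groups did not overlap. Synaptopodin mRNA rose by a log2 ratio of 0.33 ± 0.061 (edgeR adjusted *P* = 0.00146; exact permutation *P* = 0.00794).

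*Wt1* was at 19.3, 22.6, 20.8, 19.0 and 18.2 CPM in Cx LS and at 30.9, 28.2, 24.7, 20.6 and 27.7 CPM in Cx HS21. HS21 replicate 14 lay inside the LS range, as it did for *Nphs1*, and the other 4 lay above it. The log2 ratio was 0.40 ± 0.11 (edgeR adjusted *P* = 0.0115; exact permutation *P* = 0.0238).

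The 7 genes stayed raised under each scaling tried, DESeq2's size factors and unscaled total counts included. On total counts the median log2 ratio of all genes moved from 0.0046 to 0.13 and the calls over all genes from 2702 raised and 2936 lowered to 4401 raised and 1653 lowered. In bulk tissue, more podocytes in the sample and more RNA per podocyte cannot be told apart. Nor can either be told apart from a change in other cells that make these genes, or in the share of other cells. Every Cx HS21 library also had a higher intronic share than every Cx LS library in the study's quality report. The part of that difference in these ratios was not tested.

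**Figure D2:**
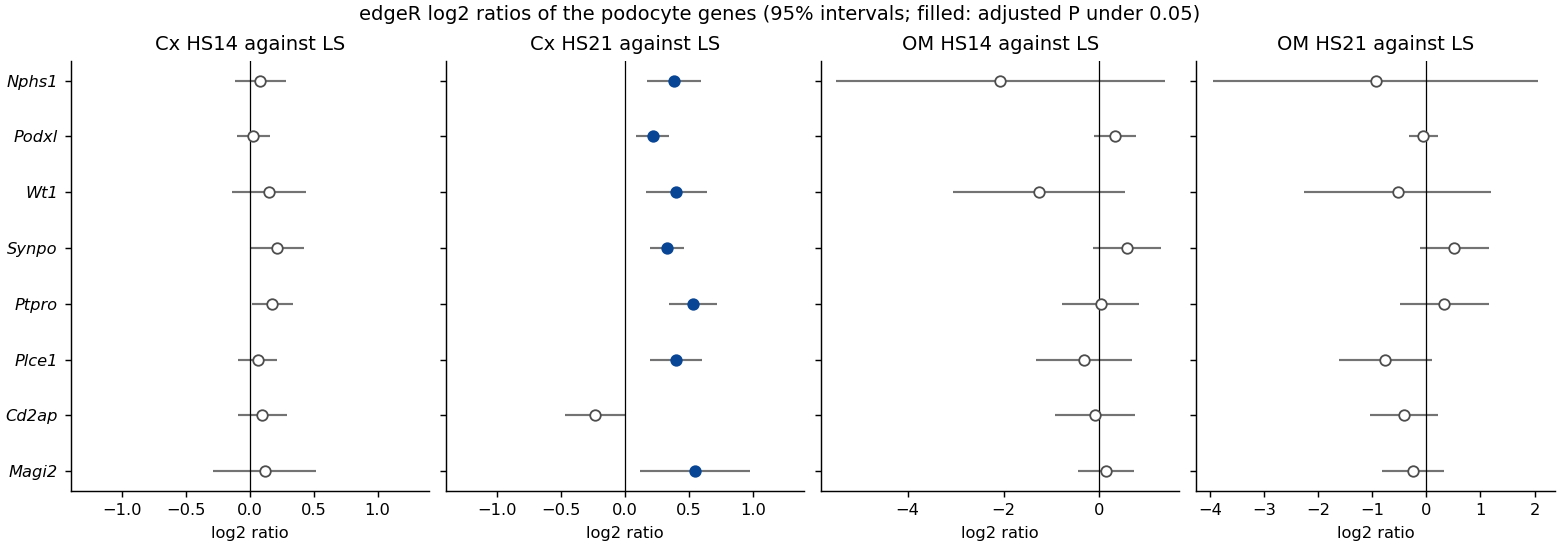
Fitted log2 ratios of each podocyte gene to LS on the x axis in the 4 diet comparisons, with 95% intervals as lines and filled points for an adjusted *P* under 0.05. Only the Cx HS21 panel holds filled points, 7 of 8, and the x axis is wider in the OM panels, where the *Nphs1* interval at HS14 spans -5.50 to 1.37.

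After 14 days the same genes were hardly displaced in Cx. All 8 log2 ratios to LS were above 0, from 0.03 for *Podxl* to 0.21 for *Synpo*, with a median of 0.11. None passed the edgeR test, in which 1.14% of all genes were raised and 1.18% lowered, and none passed with DESeq2 or limma. At an unadjusted *P* under 0.05, which 17.4% of all genes passed in either direction, 2 of the 8 did: *Ptpro*, at 115, 95.1, 95, 95.7 and 109 CPM (log2 0.18 ± 0.073), and *Synpo*, at 88.9, 64.3, 63.4, 66.0 and 77.6 CPM (log2 0.21 ± 0.097). HS14 replicates 6 and 10 were the highest of the group for both genes, as for *Nphs1* (163 and 156 CPM, the other 3 at 126 to 129) and *Wt1* (25.6 and 28.0 CPM, the other 3 at 16.7 to 21.5).

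From 14 to 21 days of high salt in Cx, *Ptpro* was the 1 member called, raised by a log2 ratio of 0.36 ± 0.094 (edgeR adjusted *P* = 0.0280), where 6.5% of all genes were raised and 9.69% lowered. That call was lost when Cx HS14 replicates 7, 8 or 9 or Cx HS21 replicates 11 or 15 was left out. Over all omissions the log2 ratio was 0.28 to 0.41. Leaving out Cx HS21 replicate 14 added *Nphs1* (0.37), and leaving out Cx HS14 replicate 10 added *Plce1* (0.38). *Plce1* (0.34 ± 0.11, edgeR adjusted *P* = 0.0511), *Podxl* (0.19 ± 0.065, 0.0674), *Nphs1* (0.30 ± 0.11, 0.0859), *Cd2ap* (-0.33 ± 0.12, 0.0894) and *Magi2* (0.43 ± 0.17, 0.101) passed only before adjustment, at which 33.6% of all genes passed. *Cd2ap* was at 76.1, 93.7, 92.8, 107 and 103 CPM in Cx HS14, above the 3 lowest HS21 libraries in every case.

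Other genes of the podocyte were read from a list of 51 symbols, 49 of which were in the table and 47 passed the filter on low counts. The list was chosen with earlier results of these data known, so that its counts are descriptive. In Cx at HS21, 23 of the 47 were raised, 8 lowered and 16 not called, where 18.9% of all genes were raised and 20.5% lowered. Their log2 ratios had a median of 0.20, against 0.0046 over all genes. At HS14 none was called by edgeR, and *Trpc6*, *Fyn*, *Iqgap1*, *Anln* and *Npr3* passed before adjustment (5 of 47, with 17.4% of all genes). Where a role had few calls, its genes are named here after their values were seen.

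By role at HS21 in Cx, 6 of 11 further slit diaphragm genes were raised and 1, *Fat1*, was lowered. Of 11 actin and cytoskeletal genes, *Inf2*, *Arhgdia* (0.16), *Slc9a3r2* (0.44) and *Clic5* (0.39) were raised and *Actn4* (-0.32), *Ezr* (-0.34) and *Anln* were lowered. *Actn4* encodes the alpha-actinin of the foot process and *Ezr* the ezrin that tethers podocalyxin to actin in podocytes and builds the brush border of proximal tubule cells. Of 7 transcription factors, 3 were raised, *Foxc1* (0.55) and *Foxd1* (0.59) among them, and none was lowered. Of 8 basement membrane and adhesion genes, *Lamb2* (0.42), *Itga3* (0.27), *Itgb1* (0.20) and *Agrn* (0.16) were raised and *Col4a4* and *Col4a5* (-0.30) lowered. Of 10 secreted factors, receptors and others, 6 were raised and *Bmp7* (-0.33) and *Enpep* were lowered. With lists this short, several of these counts lay near the shares of all genes given above, among them 3 of 11, 2 of 8 and 2 of 10 lowered. Many of these genes are made by other renal cells too.

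In OM at HS21, 2 of 46 were raised, *Fyn* (log2 0.86) among them, and none was lowered, where 0.639% of all genes were raised and 0.131% lowered. Before adjustment 9 of the 46 passed, and 11.2% of all genes. Between the tissues on LS, 19 of 48 were lower in OM and 7 higher, against 19.5% and 21.3% of all genes. Among those lower were *Crb2* (-3.41) and *Kirrel2* (-2.50), both of the slit diaphragm, and among those higher were *Kirrel3* (4.39) and *Foxc1* (3.27), also named after their values were seen.

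The largest rises among the called genes of the list were in *Trpc6*, a calcium-permeable channel at the slit diaphragm, and in *Fyn*, a kinase that phosphorylates nephrin. *Trpc6* went from 3.91 ± 0.386 to 7.86 ± 2.53 CPM (mean ± SD, n = 5 each; log2 1.0 ± 0.21, edgeR adjusted *P* = 0.00330) and *Fyn* from 21.0 ± 1.89 to 38.2 ± 6.82 CPM (0.86 ± 0.12, 0.000238). The actin regulator *Inf2* went from 12.8 ± 1.44 to 22.2 ± 5.12 CPM (0.80 ± 0.15, 0.00142) and the cell cycle inhibitor *Cdkn1c* from 25.6 ± 4.23 to 40.6 ± 3.54 CPM (0.66 ± 0.12, 0.000979). *Fyn* is also a kinase of lymphocytes, and the listed leukocyte genes rose in the same libraries (median log2 ratio 2.27). The part of that rise in the *Fyn* ratio was not tested.

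The largest falls were in *Anln*, an actin-binding protein of dividing cells, from 5.42 ± 1.56 to 1.65 ± 0.838 CPM (log2 -1.71 ± 0.33, edgeR adjusted *P* = 0.00199), and *Col4a4*, a collagen chain of the glomerular basement membrane, from 1449 ± 162 to 696 ± 108 CPM (-1.06 ± 0.11, 4.91e-05). *Enpep*, the aminopeptidase A that the proximal tubule also makes, went from 291 ± 39.0 to 222 ± 32.7 CPM (-0.39 ± 0.11, 0.0142), and *Fat1*, a large cadherin, from 287 ± 30.9 to 223 ± 17.7 CPM (-0.36 ± 0.080, 0.00396).

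Markers of other renal cells moved in the same Cx libraries, in which 18.9% of all genes were raised and 20.5% lowered at HS21. All 10 proximal tubule genes were lowered at HS21 (median log2 ratio -0.80), with a summed level of 14096 to 20964 CPM against 28959 to 31591 CPM on LS. All 9 leukocyte genes were raised (median 2.27, summed level 1434 to 5744 against 1027 to 1174 CPM), as were 6 of 7 collecting duct genes (0.73; 1243 to 1917 against 849 to 959.6), both tested distal convoluted tubule genes (0.77; 1489 to 2805 against 1027 to 1250.1) and 3 of 5 of the thick ascending limb (0.55; 2328 to 3158 against 1397 to 2015). Of the other glomerular cells, 6 of 9 endothelial genes were raised (0.29; 872 to 1088 against 750.4 to 839 CPM) and 2 of 7 mesangial and pericyte genes (0.13; 188 to 250.1 against 166 to 208). None of these lists had a member at 0 in all libraries other than the distal convoluted tubule, with 1 of 3. The 8 podocyte genes summed to 672 to 766 CPM on LS, 728 to 839.5 at HS14 and 799 to 999 at HS21. The part of these shifts in the podocyte gene ratios was not tested.

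**Figure D3:**
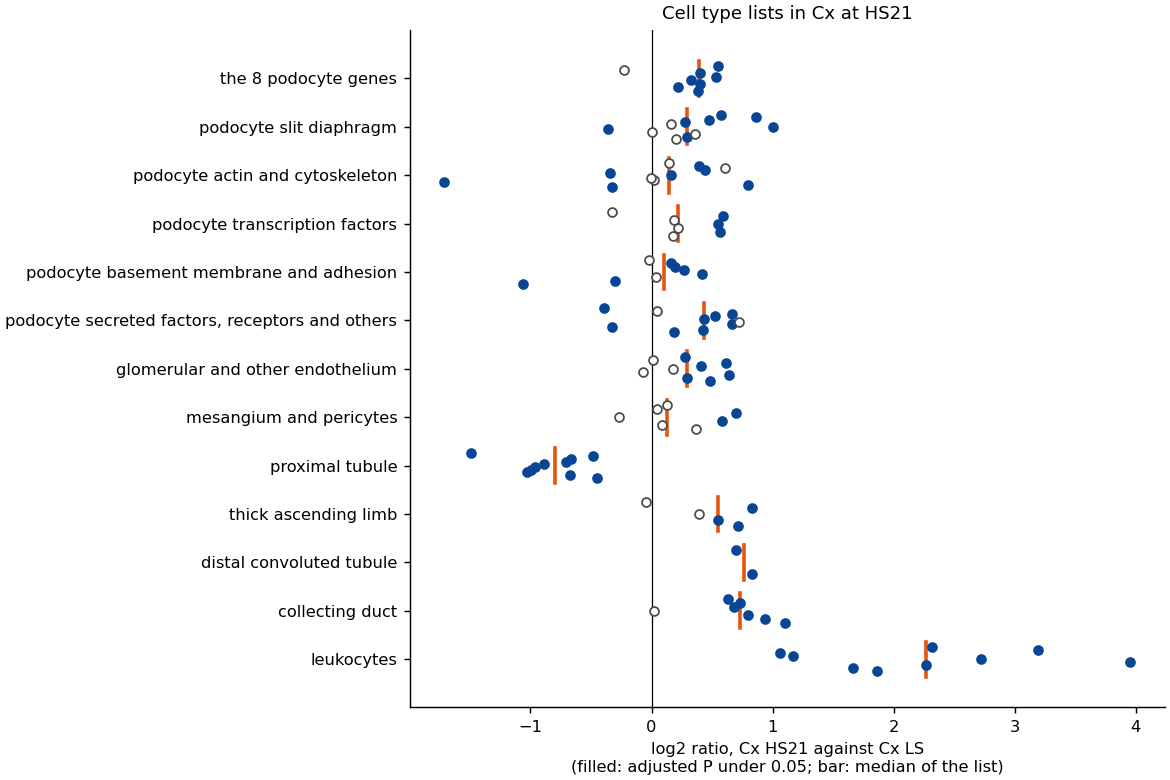
Log2 ratios of Cx HS21 to Cx LS on the x axis, 1 point per tested gene, in rows by cell type list, filled for an adjusted *P* under 0.05 and with a bar at the median of the list. The 8 podocyte genes centre at 0.39, between the proximal tubule at -0.80 and the leukocytes at 2.27.

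Comparing the tissues on LS, 6 of the 8 members were lower in OM than in Cx and 1 was higher, where 19.5% of all genes were lowered and 21.3% raised. With the replicate number, which Cx and OM share, as a block, 5 were lower and 0 higher. *Nphs1* was at 0, 60.4, 6.55, 5.08 and 0 CPM in the 5 OM LS libraries. A count of 0 allows up to 0.184 and 0.203 CPM in replicates 1 and 5 (3 counts; counting error only). The log2 ratio of OM to Cx was -3.21 ± 1.17 (edgeR adjusted *P* = 0.0493), and -5.51 ± 0.80 without OM LS replicate 2 (0.000266). *Wt1* was at 0.430, 9.83, 1.14, 0.826 and 1.49 CPM (-2.92 ± 0.70, edgeR adjusted *P* = 0.00740; -4.38 ± 0.25 without replicate 2). *Nphs1* lost its call when any other single library than OM LS replicates 2 or 5 was left out, with the log2 ratio nearest to 0 at -2.88.

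*Ptpro* and *Synpo* kept a measurable level in every OM library. *Ptpro* was at 9.72, 36.4, 12.3, 8.77 and 12.6 CPM in OM LS (log2 ratio to Cx -2.51 ± 0.37, edgeR adjusted *P* = 0.000432; -3.07 ± 0.11 without replicate 2). *Synpo* was at 11.6, 27.8, 11.7, 8.83 and 12.4 CPM (-2.11 ± 0.27, 0.000204; -2.50 ± 0.10 without replicate 2). In each of these 4 genes OM LS replicate 2, with its high *Slc12a3*, was the highest of the group.

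*Podxl*, which vascular endothelium also expresses, was at 129, 129, 129.5, 108 and 159 CPM in OM LS, a log2 ratio to Cx of -1.25 ± 0.10 (edgeR adjusted *P* = 9.98e-06), and replicate 2 did not stand out. *Magi2* was at 4.12, 4.10, 3.56, 4.51 and 5.21 CPM (-0.54 ± 0.19, 0.0421). *Magi2* lost its call without any of Cx LS replicates 2 to 4 or OM LS replicates 1 to 4, with log2 ratios of -0.41 to -0.64 over all omissions. Its call was also lost on total counts (-0.29, edgeR adjusted *P* = 0.252), without the filter on low counts (0.0664) and in the fit of all libraries (0.0799). The replicate number as a block lost it too (-0.52, edgeR adjusted *P* = 0.0859).

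*Cd2ap* and *Plce1* were not lower in OM. *Cd2ap* was at 108, 95.8, 115, 119.6 and 90.3 CPM in OM LS and at 0.26 ± 0.092 on the log2 scale relative to Cx (edgeR adjusted *P* = 0.0434). This call was lost without any 1 of 8 libraries, all but OM LS replicates 2 and 5, with log2 ratios of 0.21 to 0.31 over all omissions. It was also lost without the filter (edgeR adjusted *P* = 0.0567), with limma (0.0583) and in the edgeR fit of all libraries (0.513). The replicate number as a block lost it too (0.25, edgeR adjusted *P* = 0.0582). *Plce1* was at 37.7, 15.4, 22.6, 32.7 and 35.1 CPM (0.39 ± 0.21, 0.156), and without OM LS replicate 2, its lowest library, it was called higher in OM (0.54 ± 0.13, 0.00624). Per length, *Cd2ap* led the members in OM LS at 48.3 ± 5.86 FPKM, followed by *Podxl* at 22.5 ± 3.04, and the other 6 had means of 1.01 to 3.97 FPKM, with neighbours in that order overlapping.

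Within OM, the edgeR test passed none of the 8 members on either day of high salt, none passed before adjustment, as 5.73% of all genes did at HS14 and 11.2% at HS21, and DESeq2 and limma called none. The raised share of all genes was 0.00694% at HS14 and 0.639% at HS21, and the lowered share was 0% at HS14 and 0.131% at HS21. *Nphs1* was at 11.5, 3.76, 0.122, 0.642 and 0.714 CPM in OM HS14 and at 0.522, 5.18, 8.63, 15 and 7.88 CPM in OM HS21. These levels overlapped those of OM LS. The fitted log2 ratio to LS at HS21 was -0.94 ± 1.36, and 1.33 ± 1.21 without OM LS replicate 2, so that its direction turned on 1 library, and that of *Wt1* turned likewise from -0.53 ± 0.78 to 0.93 ± 0.44.

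*Synpo* was at 19.2, 15.6, 26.4, 17.0 and 29.1 CPM in OM HS14 and at 16.6, 16.6, 22.2, 26.4 and 21.3 CPM in OM HS21. All 10 libraries lay above the 4 lowest of OM LS and OM LS replicate 2 (27.8 CPM) lay among them. The log2 ratio at HS21 was 0.52 ± 0.29 (edgeR adjusted *P* = 0.575). Without OM LS replicate 2 it was 0.89 ± 0.16 and was called raised (0.0480), with 0.522% of all genes, and that of *Ptpro* was 0.88 ± 0.18 and was not (0.0630).

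*Plce1* spread more widely in OM than in Cx, at 15.4, 11.7, 13.5, 17.8 and 57.3 CPM at HS14 and 30.5, 22.7, 12.4, 10.8 and 8 CPM at HS21. *Cd2ap* was lowest and highest in the same HS14 libraries, replicates 7 and 10, and at HS21 both genes were highest in replicates 11 and 12 and lowest in 14 and 15. *Cd2ap* was at 74.1, 45.7, 54.2, 106 and 211 CPM at HS14 and 117, 119.5, 62.9, 47.1 and 48.9 CPM at HS21. The highest value of both was that of OM HS14 replicate 10, the library with the fewest counts, which was also the highest OM library for *Podxl* (233 CPM), *Magi2* (7.68) and *Synpo* (29.1). Without it the OM HS14 log2 ratio of *Plce1* went from -0.32 ± 0.45 to -0.98 ± 0.27 (edgeR adjusted *P* = 0.343) and that of *Cd2ap* from -0.10 ± 0.38 to -0.60 ± 0.24 (0.460). By the study's quality report, OM HS14 replicate 10 had the highest intronic share of all libraries. OM HS21 replicates 11 and 12 had a higher intronic share than replicates 13 to 15. The part of these shares in the levels was not tested.

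The OM levels of *Nphs1* and *Wt1* followed the cortical transcript *Slc12a3* over the 15 OM libraries, a relation chosen after the values were seen. The permutation *P*-values do not account for that choice. They shuffle libraries across diet groups, and the r values within diet groups were not tested. On log2 CPM, *Nphs1* gave Pearson's r = 0.81 (permutation *P* = 2e-05, adjusted over 8 genes 0.00012) and Spearman's rho = 0.95 (1e-05, the smallest value that 100000 resamples can give, adjusted 8e-05). Leaving out OM LS replicate 2 and OM HS21 replicate 14, the libraries farthest from the median of *Slc12a3*, left r at 0.82, and within diet groups r was 0.82. *Wt1* gave r = 0.90 (permutation *P* = 3e-05, adjusted 0.00012) and rho = 0.74 (0.00239, adjusted 0.00956), with r = 0.68 without those 2 libraries and 0.90 within diet groups. *Ptpro* gave r = 0.77 (permutation *P* = 0.00082, adjusted 0.00219) and rho = 0.69 (0.0055, adjusted 0.0147). Its r was 0.41 without those 2 libraries, on which it largely rested, and 0.87 within diet groups with them included. For *Synpo* r was 0.48 and rho 0.48 (permutation *P* = 0.0628 and 0.0709), with r = 0.24 without those 2 libraries and 0.74 within diet groups. For *Podxl*, *Plce1*, *Cd2ap* and *Magi2* r was -0.14 to -0.39 (-0.0010 to -0.48 within diet groups) and the lowest adjusted permutation *P* was 0.155.

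**Figure D4:**
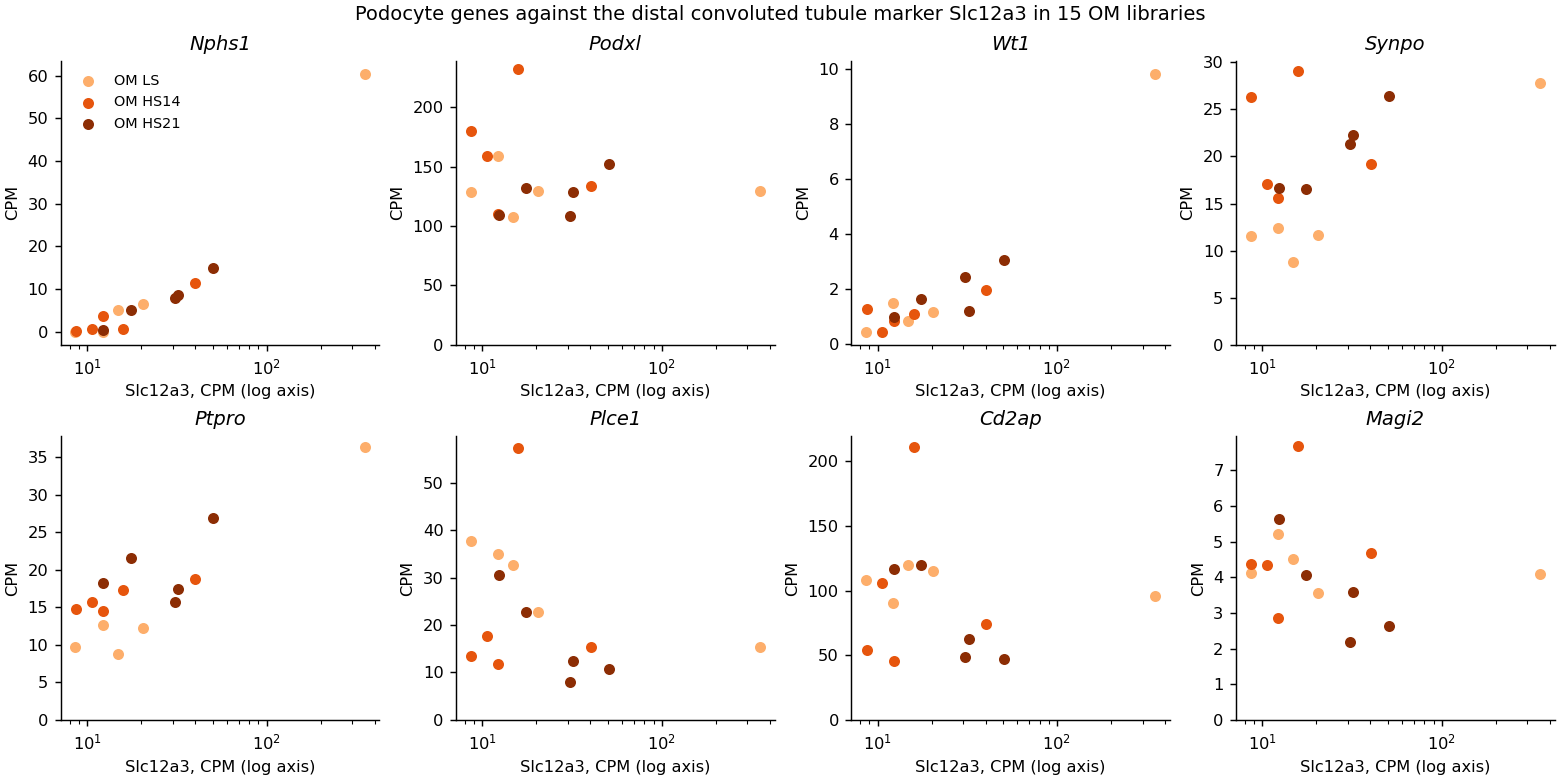
CPM of each podocyte gene on the y axis against that of the cortical marker *Slc12a3* on a log x axis, 1 point per OM library, coloured by diet group. OM LS replicate 2 is the point at 354 CPM of *Slc12a3*; *Nphs1* climbs with the marker through the other libraries too, whereas *Cd2ap* and *Plce1* do not.

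Whether the HS21 difference itself differed between the tissues was tested as an interaction over 20 libraries. None of the 8 members passed the edgeR test, where 0.448% of all genes had a higher ratio in OM and 0.217% a lower one, and none passed with DESeq2 or limma. *Plce1*, raised in Cx and at a log2 ratio of -0.76 ± 0.39 in OM, had an interaction of -1.17 ± 0.41 (unadjusted *P* = 0.00972 and adjusted *P* = 0.177 from edgeR), and *Magi2* one of -0.80 ± 0.33 (0.0242 and 0.249). Those were the 2 members under 0.05 before adjustment, with 15.6% of all genes. Without OM LS replicate 2, *Plce1* (-1.31 ± 0.38, edgeR adjusted *P* = 0.0428) and *Synpo* (0.58 ± 0.17, 0.0420) were called, but the calls over all genes then went from 68 with a higher ratio in OM and 33 with a lower one to 729 and 546 (4.74% and 3.55%). Without OM HS21 replicate 11 *Plce1* was called (-1.50 ± 0.35, edgeR adjusted *P* = 0.0474), with 0.73% and 0.476% of all genes.

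Library to library, the members moved together in Cx to different degrees. After the mean of each diet group was taken off, the correlation of a member's log2 CPM with the mean of the other 7 over the 15 Cx libraries was 0.86 for *Nphs1* and *Ptpro*, 0.72 for *Wt1*, 0.70 for *Plce1*, 0.68 for *Magi2*, 0.58 for *Synpo*, 0.38 for *Podxl* and 0.18 for *Cd2ap*. These values are descriptive, since the points share libraries and their scaling. Out of 13337 other genes that code for protein and averaged 1 CPM or more in Cx, the 8 whose centred levels were most like the mean of the members were *Plxnb2* (r = 0.90), *Pvrl4* (0.88), *Igfbp2* (0.88), *Tmem178a* (0.87), *Lrp5* (0.87), *Foxd1* (0.87), *Klhl21* (0.85) and *Bcam* (0.85). *Foxd1* was on the podocyte list. At HS21, *Bcam* (log2 0.71 ± 0.074), *Foxd1* (0.59 ± 0.20), *Tmem178a* (0.58 ± 0.11), *Igfbp2* (0.52 ± 0.11) and *Lrp5* (0.25 ± 0.081) were raised, with edgeR adjusted *P* of 4.91e-05 to 0.0336, and the other 3 were not called. Of the 47 listed podocyte genes among the candidates, 4 were within the 100 most alike.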

How the data were processed

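Poly(A) mRNA of Cx and OM was sequenced as non-directional paired-end libraries. Per the methods of the study, the authors aligned reads to Rnor_6.0 with HISAT2 2.0.5 and deposited raw read counts per gene from featureCounts 1.5.0-p3, and computed FPKM from those counts and the gene length; StringTie 1.3.3b is also named in the submitters' processing notes. Without strand, reads of a gene and of an overlapping antisense gene cannot be told apart. The deposited table also holds group means, fold changes and *P*-values of the authors' own comparisons, which were not used.

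The counts were tested with edgeR 4.0.16 (R 4.3.3), using TMM scaling, filterByExpr by group and the quasi-likelihood F-test, on the 10 libraries of a comparison (20 for the interaction). *P*-values were adjusted over all genes. CPM used TMM factors over 30 libraries, and log2 CPM a prior count of 2. Exact permutation tests used all regroupings of 5 against 5. The alternatives were DESeq2 1.42.0, other scalings and filters, limma 3.58.1 on log2(FPKM + 1), fits over more libraries, a replicate block and each library left out. The procedure was tested on simulated data. Cell lists held 110 symbols, of which 107 were matched.

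The members and lists were chosen with earlier results of these data known. All 8 members are reported. From the other podocyte genes the text names, per Cx comparison with LS, up to 4 raised and 4 lowered called genes with the largest log2 ratio and a mean of at least 1 CPM. Some listed genes enter the counts but are not reported here by name. The likeness measure was Pearson's r of group-centred log2 CPM. Over 60 within-group pairs, no library was a copy of another.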

Additional observations from a re-analysis of the deposited data

Results flagged for a closer look

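Within groups of 5 libraries, Dixon's ratio is the gap of the lowest or highest library to its nearest neighbour, divided by the range of the 5. It exceeded its 95% critical value of 0.71, which chance alone meets in about 1 in 20 groups, in 7 of the 48 member and group combinations. OM LS replicate 2 accounted for 4 of them, with *Nphs1* at 60.4 CPM (nearest library 6.55), *Wt1* at 9.83 (1.49), *Synpo* at 27.8 (12.4) and *Ptpro* at 36.4 (12.6). The same library held 354 CPM of the cortical marker *Slc12a3*, and the part of that in these 4 values was not tested. Cx LS replicate 1 was low for *Nphs1* at 112 CPM (nearest 135) and for *Podxl* at 279 CPM (315). *Plce1* stood at 57.3 CPM in OM HS14 replicate 10 (nearest 17.8), the library with 5408126 counts and the lowest exonic share.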

How the results depend on the processing

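At HS21 in Cx the members raised numbered 7 with DESeq2, DESeq2's size factors in edgeR, total counts, limma and the fit of all libraries, 6 without the filter on low counts, and 6 to 7 with 1 library left out; those lowered numbered 0 to 1 with 1 left out. From HS14 to HS21 in Cx, where 1 member was raised, the count was 3 with DESeq2, 2 with its size factors, 4 on total counts, 4 in the fit of all Cx libraries (which also called 1 lowered, *Cd2ap*, at -0.33) and 0 to 2 with 1 library left out. For OM against Cx the 1 member raised became 2 on total counts, 0 without the filter, 0 with limma, 0 in the fit of 30 libraries and 0 to 2 with 1 left out; the 6 lowered became 4 to 6. DESeq2 gave no adjusted *P* to *Nphs1* and *Wt1* there and in the interaction, nor to *Wt1* at OM HS14. Within OM at HS21 and for the interaction, counts of 0 became at most 1. The replicate number as a block left 5 lowered and 0 raised in OM against Cx, without the calls of *Magi2* (-0.52, adjusted *P* = 0.0859) and *Cd2ap* (0.25, 0.0582), and turned the interaction of *Nphs1* from -1.31 to 0.20. The labels do not say what a shared number means: of 15 same-numbered Cx and OM pairs, 12 deviated together at r over 0.1 and 13 correlated best with their own number. Directions of uncalled ratios that turned with 1 library left out were, as ranges over omissions, *Podxl* at Cx HS14 (-0.0055 to 0.050); at OM HS14 *Nphs1* (-3.40 to 0.21), *Wt1* (-1.59 to 0.20), *Ptpro* (-0.11 to 0.58), *Cd2ap* (-0.60 to 0.091) and *Magi2* (-0.082 to 0.29); at OM HS21 *Nphs1* (-1.36 to 1.33), *Podxl* (-0.13 to 0.016) and *Wt1* (-0.81 to 0.93); and in the interaction *Nphs1* (-1.73 to 0.98), *Wt1* (-1.19 to 0.55) and *Ptpro* (-0.36 to 0.36). With 1 library left out, 580 member ratios kept direction and call, 35 lost the call, 8 gained it and 17 turned. Of the 8 genes most like the members, 4 were shared with Spearman's rho and 4 without centring. Over all genes, DESeq2 called 498 raised and 422 lowered at Cx HS14 (edgeR 162 and 168), 554 and 166 at OM HS21 (93 and 19), 90 and 20 at OM HS14 (1 and 0) and 337 and 201 in the interaction (68 and 33), and 1455 raised from HS14 to HS21 in Cx (935). Total counts gave 4401 raised and 1653 lowered at Cx HS21 (edgeR with TMM 2702 and 2936), 2084 and 644 from HS14 to HS21 (935 and 1395), 5546 and 1842 in OM against Cx (3051 and 2794), 35 and 9 at OM HS21, 0 raised at OM HS14 and 54 lowered in the interaction. The fit of all libraries raised 83 at Cx HS14, 1500 from HS14 to HS21, 2 at OM HS14, 179 at OM HS21 and 23 in the interaction, where 4 were lowered; limma raised 137 there, and without the filter 10 were lowered there and 0 raised at OM HS14. The cause of these shifts was not tested. Low counts of *Nphs1* and *Wt1* in OM limit those ratios.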

Other observations

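A split among the HS21 libraries was seen in both tissues after the values were examined. *Cd2ap* was at 91.2 and 87.5 CPM in Cx HS21 replicates 11 and 12 and at 62.6 to 69.1 CPM in replicates 13 to 15, and in OM HS21 it was at 117 and 119.5 CPM in replicates 11 and 12 and at 47.1 to 62.9 CPM in replicates 13 to 15. *Plce1* was at 32.7 and 34 CPM against 25.1 to 26.9 CPM in the Cx libraries and at 30.5 and 22.7 CPM against 8 to 12.4 CPM in the OM libraries of the same numbers. The labels do not say that a shared number is a shared rat, and no test was made of this split. By the study's quality report, OM HS21 replicates 11 and 12 also had a higher intronic share than replicates 13 to 15. The intronic shares of the Cx HS21 libraries did not separate in this way, though all of them lay above those of the Cx LS libraries. The part of these shares in the split was not tested.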
